A study of Mus musculus with 28 samples.

Results

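Fgfr1, Fgfr2 and Fgfr3 encode receptors for fibroblast growth factors (FGFs), and each of them lies on the chromosome near a gene of the transforming acidic coiled-coil family, as the pairs Fgfr1 and Tacc1, Fgfr2 and Tacc2, and Fgfr3 and Tacc3. These 6 genes, chosen by name as 3 neighbour pairs, are described here in single mouse brain cells. All 6 were among the 23453 genes of the exonic count table and among the 20422 genes of the intronic count table.

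The FGF receptors are tyrosine kinases of the cell surface. On binding an FGF together with heparan sulphate they phosphorylate themselves and docking proteins such as FRS2, which passes the signal through GRB2 and SOS to the Ras and MAP kinase pathway, and the pathway switches on its own inhibitors of the Sprouty, Spred and DUSP families. In the brain this signalling is known for its part in the growth of neural progenitors and glia, and Fgfr3 is a known marker of astrocytes and their precursors. The TACC proteins bind microtubules through the polymerase CKAP5, and TACC3, with Aurora A and clathrin, holds the fibres of the mitotic spindle together. The pairs are thought to descend from the duplication of a single ancestral pair, and fusions of FGFR3 with TACC3 and of FGFR1 with TACC1 are known drivers of human gliomas.

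RNA was sequenced from 28 single cells of mouse cortex, which the sample labels give as 8 astrocytes and 12 neurons from primary culture of the genotype C57/BL6, taken by pipette, and 8 interneurons from acute slices of prefrontal cortex of the genotype C57/BL6/N, taken by patch-clamp pipette. No treatment, transgene or deletion is given for any of them. The labels give a 3-month old male mouse for the cultured cells and no age for the interneurons. The study's methods, in contrast, call the cultures embryonic and name such a mouse for brain sections, so the age of the cultured cells is uncertain. The libraries of the cultured cells were made with a kit that does not mark strand and were read on an Illumina NextSeq, and those of the interneurons with a stranded kit on an Illumina HiSeq instrument, so cell type, strain, preparation and sequencer cannot be told apart between them. No animal or culture is named for any cell.

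The codes over the 28 columns of the count tables appear in none of the sample labels. Cell types were therefore not given to columns, no group was tested, and no p-value is printed. The columns were set in 3 runs by their codes, BRP564 to BRP572 with no BRP565, BRP528 to BRP543 with a step from BRP529 to BRP534, and F. They have 8, 12 and 8 columns and are called here by their first code or letter run BRP564, run BRP528 and run F. These sizes equal the numbers of labelled astrocytes, neurons and interneurons, but no label ties a code to a cell. Exonic counts per column were 12969692 to 19798892 in run BRP564, 17483754 to 26770944 in run BRP528 and 838343 to 14831505 in run F, and the intronic share of all counts had a median of 8.75%, 15.7% and 50.4% in the 3 runs. Levels below are exonic counts per 1000000 exonic counts of the column (CPM). Counts of a gene are exonic unless called intronic or part of an intronic share. A gene is called held by a column at 10 or more exonic counts. A count of 0 allows up to 3 counts, which is 0.112 to 0.231 CPM in the BRP columns and 0.202 to 3.58 CPM in the F columns. These limits and the intervals below cover counting error only, since the reads carry no molecular identifiers.

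Marker genes are given as measured, and they name no column. In run BRP564 all 8 astrocyte markers, among them Aqp4, Gja1 and Sox9, were held by all 8 columns, Aqp4 at 652 to 2062 CPM. Of the 6 neuronal markers there, Map2 was held by all 8 columns, at 236 to 484 CPM, Tubb3 by 7, Syt1 by 4, Snap25 by 2, Nefl by 1 and Rbfox3 by none. The oligodendrocyte-lineage factor Olig1 was also high there, at 432 to 1048 CPM, and the mitotic gene Top2a was held by all 8. In run BRP528 all 6 neuronal markers were held by all 12 columns, with Snap25 at 607 to 3699 CPM. Aqp4 was held by 7 of these 12 columns, at 418 CPM in BRP529, 142 CPM in BRP528, 28.9 CPM in BRP534 and at most 5.09 CPM in the others, and Gja1 by 3, BRP529, BRP528 and BRP538. In run F, Snap25 was held by all 8 columns, the GABA-synthesising enzyme gene Gad1 and the GABA transporter gene Slc32a1 by 7 each, Gad2 by 4, and Rbfox3, Nefl and Pvalb by 2 each. Markers of GABAergic neurons were not confined to run F. Column BRP528 had Gad1 at 1136 CPM, Slc32a1 at 798 CPM and Pvalb at 279 CPM, but Gad1 was at most 0.204 CPM in the other columns of its run. Gad2 was held by more columns of run BRP528 than of run F, among them BRP541 at 340 CPM, BRP543 at 128 CPM and BRP535 at 64.3 CPM. Pvalb was held by more columns of run BRP564 than of run F, among them BRP568 at 182 CPM and BRP564 at 24.8 CPM. Single F columns were high in markers of other types, with Slc1a2 at 4350 CPM and Olig1 at 3210 CPM in F7, Sox9 at 1063 CPM in F11 and 1180 CPM in F12, and the microglial gene Csf1r at 2093 CPM in F16. Of the 3 endothelial markers, Cldn5 had 0 counts in all 28 columns, Flt1 was held by BRP570 at 19.7 CPM and by BRP567, and Pecam1 by BRP537 and BRP572.

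By GENCODE M21 on GRCm38, Fgfr3 (chr5:33721674-33737068, plus strand) lies downstream of Tacc3 (chr5:33658128-33678995, plus strand) at a distance of 42.7 kb with no protein-coding gene between them. Fgfr1 (chr8:25513654-25575718, plus strand) and Tacc1 (chr8:25154552-25256588, minus strand) point away from each other across 257 kb, again with no protein-coding gene between them. Fgfr2 (chr7:130162451-133123350, minus strand) and Tacc2 (chr7:130577438-130764785, plus strand) also point away from each other if the start of Fgfr2 at position 130266263 is taken, with 311 kb and the 2 protein-coding genes Ate1 and Nsmce4a between them. The much longer annotated span of Fgfr2 comes from transcript Fgfr2-217, whose intron of 2909 kb encloses Tacc2. Only small parts of the exons were shared with other protein-coding genes. For Tacc3 this was 8.14% of its merged exons, shared with Tmem129 on the opposite strand, and for Fgfr2 it was 3.04%, shared with Ctbp2 on the same strand. Fgfr3 shares 13.9% of its merged exons with G630022F23Rik on the opposite strand, which neither table lists. How the authors' counting treated strand and shared exons is not given in the sources used here, so reads of these stretches may stand under either gene.

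RefSeq sequence before the annotated start was at hand for Fgfr2, Fgfr3, Tacc2 and Tacc3. It is shown to set the start of Fgfr3 beside those of the Fgfr2 and Tacc2 pair, with every CpG in capitals, on GRCm38.p6, each 5′ to 3′ on its gene's own strand and without exons of protein-coding genes. The 3 stretches are chr7:130266809-130267058 (minus strand) for Fgfr2, chr5:33721474-33721673 (plus strand) for Fgfr3, and chr7:130577188-130577437 (plus strand) for Tacc2.
Fgfr2: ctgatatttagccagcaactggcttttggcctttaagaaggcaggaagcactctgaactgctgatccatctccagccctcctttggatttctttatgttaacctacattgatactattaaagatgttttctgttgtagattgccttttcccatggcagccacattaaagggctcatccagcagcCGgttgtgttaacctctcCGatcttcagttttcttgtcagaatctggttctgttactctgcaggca
Fgfr3: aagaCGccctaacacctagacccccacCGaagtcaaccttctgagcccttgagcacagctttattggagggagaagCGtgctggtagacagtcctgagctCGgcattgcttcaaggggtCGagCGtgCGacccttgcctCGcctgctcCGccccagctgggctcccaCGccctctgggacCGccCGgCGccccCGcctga
Tacc2: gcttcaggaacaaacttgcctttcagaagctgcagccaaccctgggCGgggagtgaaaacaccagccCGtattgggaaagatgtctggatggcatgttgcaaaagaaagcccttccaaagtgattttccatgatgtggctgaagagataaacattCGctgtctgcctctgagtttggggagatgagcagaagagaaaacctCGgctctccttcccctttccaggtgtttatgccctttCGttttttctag
Over the whole 250 bases before the RefSeq start, Fgfr3 held 19 CpG and Tacc3 also held 19, while Tacc2 held 5 and Fgfr2 held 2. For Fgfr2 and Fgfr3 this start differs from the GENCODE one. The Fgfr2 window lies wholly upstream of position 130266263. The whole Fgfr3 window ends at 33721723, past the GENCODE start at 33721674, and its printed part, which ends before that start, holds 14 of the 19 CpG. The median over 32851 such windows of all genes was 6. A second annotated start was given for Fgfr3, with 24 CpG before it, and for Tacc2, with 7. A GC box, searched as GGGCGG on either strand, was present before both starts of Fgfr3, before Tacc3 and before the first start of Tacc2, absent before the second start of Tacc2 and before Fgfr2, and 32.7% of all windows held it. A TATA box, searched as TATAAA on either strand, was in none of the 6 windows and in 12.4% of all windows. The members of the tandem pair thus had 19 to 24 CpG before their RefSeq starts, and those of the Fgfr2 and Tacc2 pair had 2 to 7. The window of Tacc3 is covered by an exon of Tmem129 and is not printed.

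**Figure D1:**
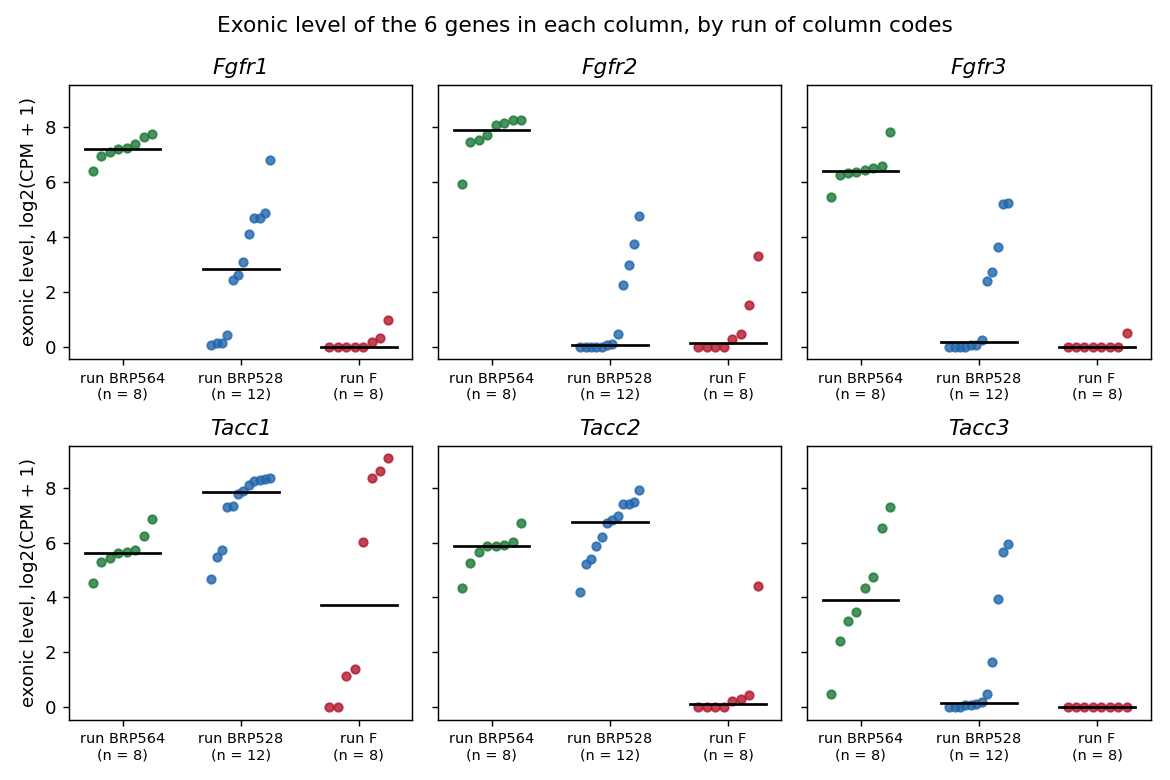
Exonic level of each of the 6 genes on a log2(CPM + 1) scale, 1 point a column, with the columns set out by run of codes (8, 12 and 8 columns) and a bar at the run's median. The receptors lie high in all 8 columns of run BRP564 and near 0 in most columns of run F, Tacc1 and Tacc2 lie high in run BRP528 as well, and Tacc3 is at 0 in all F columns.

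The 3 receptors were held by every column of run BRP564. Fgfr1, a receptor broadly used in mesenchymal and neural tissue, had a lowest level of 82.0 CPM, a median of 147 CPM and a highest of 211 CPM there. In run BRP528 it ran from 0.0510 to 110 CPM around a median of 6.27 CPM and was held by 8 of 12 columns. In run F it had 5 exonic counts over all 8 columns and was held by none. Run BRP564 and run BRP528 overlapped for Fgfr1 through a single column, BRP535, which at 110 CPM stood above BRP569, the lowest column of run BRP564. The next highest column of run BRP528 was BRP529, at 28.1 CPM.

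Fgfr2, which in other tissues is spliced into an epithelial and a mesenchymal form with different ligands, had the widest gap of the receptors between the medians of the BRP runs. Its levels in run BRP564 were 59.7 CPM at the lowest, 238 CPM at the median and 305 CPM at the highest. In run BRP528 they were 0, 0.0528 and 25.96 CPM, and 4 of 12 columns held the gene. In run F only column F2 held it, with 49 counts, or 8.85 CPM. The highest column outside run BRP564, BRP529, was below the lowest column inside it.

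Fgfr3 showed the same separation. Its lowest, median and highest levels were 42.3, 83.5 and 225 CPM in run BRP564, and 0, 0.114 and 36.1 CPM in run BRP528. It was held by 5 of 12 columns of run BRP528 (BRP528, BRP529, BRP540, BRP541 and BRP543), and in run F its only counts were 6 in column F1. Thus 2 of the 6 genes, Fgfr2 and Fgfr3, were higher in every column of run BRP564 than in any of run BRP528, where 2.69% of the 19524 genes with an exonic count were. Against run F the same was true of 4 of the 6, Fgfr1, Fgfr2, Fgfr3 and Tacc3, and of 16.3% of all these genes. The runs were proposed with earlier results of these data known, so these counts are a description.

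The deepest F columns had few or no exonic counts of these genes. Column F6, with 12043599 exonic counts, had 0 counts of all 6 genes, and column F1, with 14831505, had 2 of Fgfr1, 3 of Fgfr2, 6 of Fgfr3 and none of the Tacc genes. Both are within or near the depth range of the run BRP564 columns, in which the least deep, BRP569, had 1063 counts of Fgfr1 and 3474 of Fgfr2. However, F1 and F6 held only 3780 and 2381 genes of any kind at 10 or more counts, against 9381 to 11286 genes in the columns of run BRP564. The part of this and of strain, preparation and sequencer in the low counts was not tested.

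Tacc1, a TACC protein found in many tissues, had the opposite order of medians. It was held by all 20 BRP columns, at 22.1 to 115 CPM around a median of 48.3 CPM in run BRP564 and at 24.8 to 328 CPM around a median of 226 CPM in run BRP528. In run F it was split, with 0 in F1 and F6, at most 1.61 CPM in F7 and F16, 64.7 CPM in F2 and 327, 387 and 537 CPM in F11, F12 and F24. Tacc1 is therefore the only one of the 6 genes held by more than 1 F column, and its highest and lowest F columns lie outside its entire range in the BRP columns. The ranges of all 3 runs overlapped.

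Tacc2, whose product binds microtubules in many cell types, was likewise held by all 20 BRP columns. It ran from 19.4 to 103 CPM around 57.2 CPM in run BRP564 and from 17.2 to 237 CPM around 108 CPM in run BRP528, and these ranges overlapped. In run F it was held by F24 alone, with 43 counts or 20.3 CPM, and the other F columns had 1 count or none. Tacc1 and Tacc2 thus parted in F11 and F12, where Tacc1 had 1434 and 1047 counts and Tacc2 had 1 in each.

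Tacc3, the mitotic member of the family, had the widest fold range of the 6 genes inside run BRP564. There it ran from 0.404 CPM in BRP570, the column with the highest Fgfr3, to 155 CPM in BRP568, around a median of 14.6 CPM. In run BRP528 its median was 0.112 CPM, and the 5 columns that held it were BRP529 at 60.5 CPM, BRP541 at 49.0 CPM, BRP534 at 14.3 CPM, BRP540 at 2.173 CPM and BRP539 at 0.409 CPM. In run F it had 0 counts in all 8 columns, which allows 0.202 CPM in the deepest of them and 3.58 CPM in the shallowest. The lowest level in run BRP564 rests on 8 counts and lies under the limit of the shallowest F column.

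Compared per kilobase of merged exon, the median levels in run BRP564 were 23.0 CPM per kb for Fgfr2, 14.9 for Fgfr1, 11.7 for Fgfr3, 4.11 for Tacc3, 4.05 for Tacc1 and 3.71 for Tacc2. Each gene's range over the 8 columns overlapped that of the next in this order. In run BRP528 the order on the same scale was Tacc1 at 19.0, Tacc2 at 6.98, Fgfr1 at 0.635, Tacc3 at 0.0316, Fgfr3 at 0.0159 and Fgfr2 at 0.00511 CPM per kb, again with overlapping ranges between neighbours. Fgfr2, which led in the first run, was thus among the lowest genes in the second. The median counts of Tacc3, Fgfr3 and Fgfr2 there were 2.5, 2.5 and 1. These are under the 3 counts that a count of 0 allows, so the order of these genes cannot be told.

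Summed as families, the receptors together had 285 to 676 CPM in run BRP564, 0.0818 to 110 CPM in run BRP528 and at most 8.85 CPM in run F. The 3 Tacc genes together had 104 to 269 CPM, 88.2 to 495 CPM and 0 to 558 CPM. Within run BRP564, Fgfr2 had the highest level per kb of the receptors in 5 columns, Fgfr1 in 2 and Fgfr3 in 1. Of the 9 columns of run BRP528 with enough receptor counts to rank, Fgfr1 led in 5, Fgfr3 in 4 and Fgfr2 in none. Tacc1 led its family per kb in 10 of 12 columns of run BRP528 and in all 5 F columns that could be ranked, whereas in run BRP564 Tacc3 led in 4, Tacc1 in 2 and Tacc2 in 2.

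The genes also differed in how often they were held together. Fgfr2 and Fgfr3 were held together by 12 columns, 1 column held only Fgfr2 (F2), 1 held only Fgfr3 (BRP541) and 14 held neither. Fgfr1 was held without either of them by 4 columns, BRP535 with 2348 counts of it, BRP537 with 659, BRP536 with 167 and BRP542 with 103. All 16 columns that held Fgfr1 also held Tacc1 and Tacc2, and all 12 that held Tacc3 did so as well. All 6 genes were held by 9 columns, which are the columns of run BRP564 other than BRP570 together with BRP529 and BRP540.

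**Figure D2:**
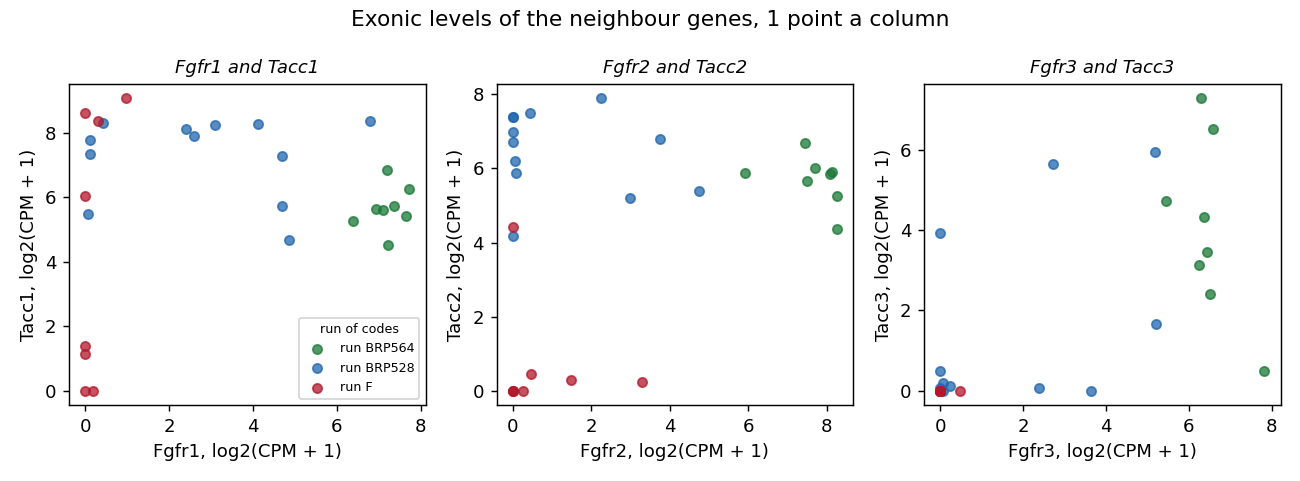
Exonic levels of the 2 genes of each neighbour pair on log2(CPM + 1) axes, 1 point a column, coloured by run of codes. Fgfr1 and Tacc1 (rank correlation −0.02) and Fgfr2 and Tacc2 (rank correlation 0.05) spread with no common trend over the runs, and Fgfr3 and Tacc3 (rank correlation 0.69) share their columns near 0.

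Neighbours on the chromosome did not share their levels in general. Over the 28 columns, the Spearman rank correlation of the exonic levels was −0.02 for Fgfr1 and Tacc1, 0.05 for Fgfr2 and Tacc2 and 0.69 for Fgfr3 and Tacc3. The median over 47290 pairs of genes at most 500 kb apart was 0.35, with quartiles of 0.18 and 0.50, and the median over all pairs of the 10319 genes compared was 0.33. The columns share run, preparation and depth, and the runs stand apart, so the values within runs belong beside these. Within run BRP564 the rank correlation was 0.29, −0.62 and −0.40 for the 3 pairs in the same order, and within run BRP528 it was 0.09, −0.13 and 0.29. The rank correlation of Fgfr3 and Tacc3, the closest and only tandem pair, was therefore not seen inside run BRP564, where the column with most Fgfr3 had least Tacc3. In run F it has no value, since Tacc3 was at 0 throughout.

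The receptors resembled each other over all columns, but not within run BRP564. The rank correlation over the 28 columns was 0.84 for Fgfr2 and Fgfr3, 0.82 for Fgfr1 and Fgfr3, and 0.68 for Fgfr1 and Fgfr2, the last of these no higher than that of the neighbours Fgfr3 and Tacc3. Within run BRP528 it was 0.87, 0.37 and 0.28, and within run BRP564 it was 0.14, 0.24 and −0.36. Fgfr2 and Fgfr3 thus kept a high rank correlation inside run BRP528, where 4 columns held both and, except for BRP541, the others had at most 8 counts of either. The Tacc genes had lower values among themselves, 0.33 for Tacc1 and Tacc2, 0.35 for Tacc2 and Tacc3 and −0.12 for Tacc1 and Tacc3. Across the families Tacc3 had 0.63 with Fgfr1 and 0.56 with Fgfr2 over all columns. Within run BRP564 its values with Fgfr1, Fgfr2 and Tacc1 were 0.05, −0.69 and −0.43, and within run BRP528 they were −0.27, 0.27 and 0.04, so that in each of these runs one of these receptors lay below Tacc1.

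**Figure D3:**
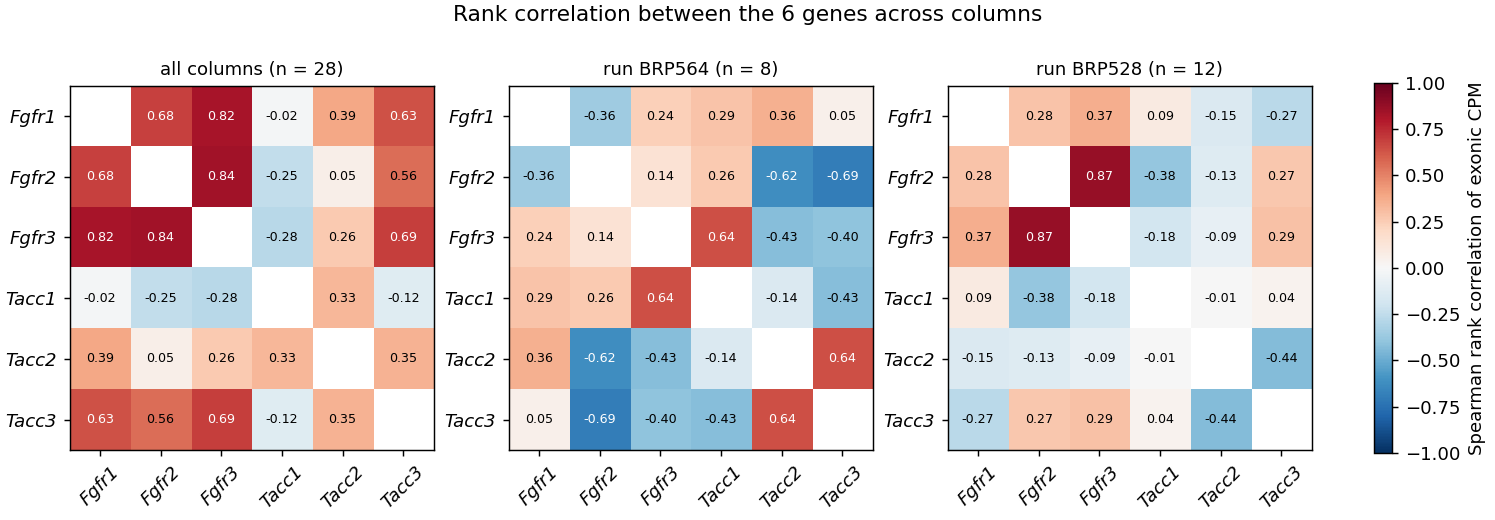
The Spearman rank correlation of exonic CPM for each pair of the 6 genes, over all 28 columns, within the 8 columns of run BRP564 and within the 12 of run BRP528. The block of high values among the receptors over all columns, 0.68 to 0.84, is reduced to −0.36 to 0.24 within run BRP564.

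Among the 10319 genes with 10 counts in at least 10 columns, the 3 most like each member over the 28 columns were found by rank correlation. For Fgfr1 these were Mif4gd (0.92), Pdpn (0.92), which encodes podoplanin, and Igfbp3 (0.91), which encodes a binding protein of insulin-like growth factors. For Fgfr2 they were Eci2 (0.94), Lamb2 (0.93), a laminin chain, and Gbp2 (0.89), a guanylate-binding protein. For Fgfr3 they were Tspan15 (0.94), Ctnnal1 (0.94) and S100a4 (0.93). All 9 had a higher median in run BRP564 than in the other runs. For Tacc1 the list began with Nrxn3 (0.79), a presynaptic neurexin, with a median of 11.7 CPM in run BRP564, 907 CPM in run BRP528 and 679 CPM in run F, and went on with Pgap1 (0.75) and Akap8l (0.74). For Tacc2 it was B3galt1, Usp31 and Elac2, each 0.88 to 0.90, and all 3 had a median of 0 in run F. For Tacc3 it was Bnip2 (0.90), Hmgn5 (0.88) and Nfib (0.88), a transcription factor of glial development.

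No member was among another member's nearest genes. Fgfr3 was number 24 of 10318 in likeness to Fgfr2 and number 232 in likeness to Fgfr1. Tacc3 was number 1509 in likeness to Fgfr3, Tacc2 was number 7671 in likeness to Fgfr2, and Tacc1 was number 9351 in likeness to Fgfr1. Of the genes that lie between Fgfr2 and Tacc2, Nsmce4a had a rank correlation of 0.52 with Fgfr2 and 0.32 with Tacc2, and Ate1, which encodes an arginyltransferase, had 0.03 with Fgfr2 and 0.52 with Tacc2. These are positions in a description across columns that share runs, with no test.

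**Figure D4:**
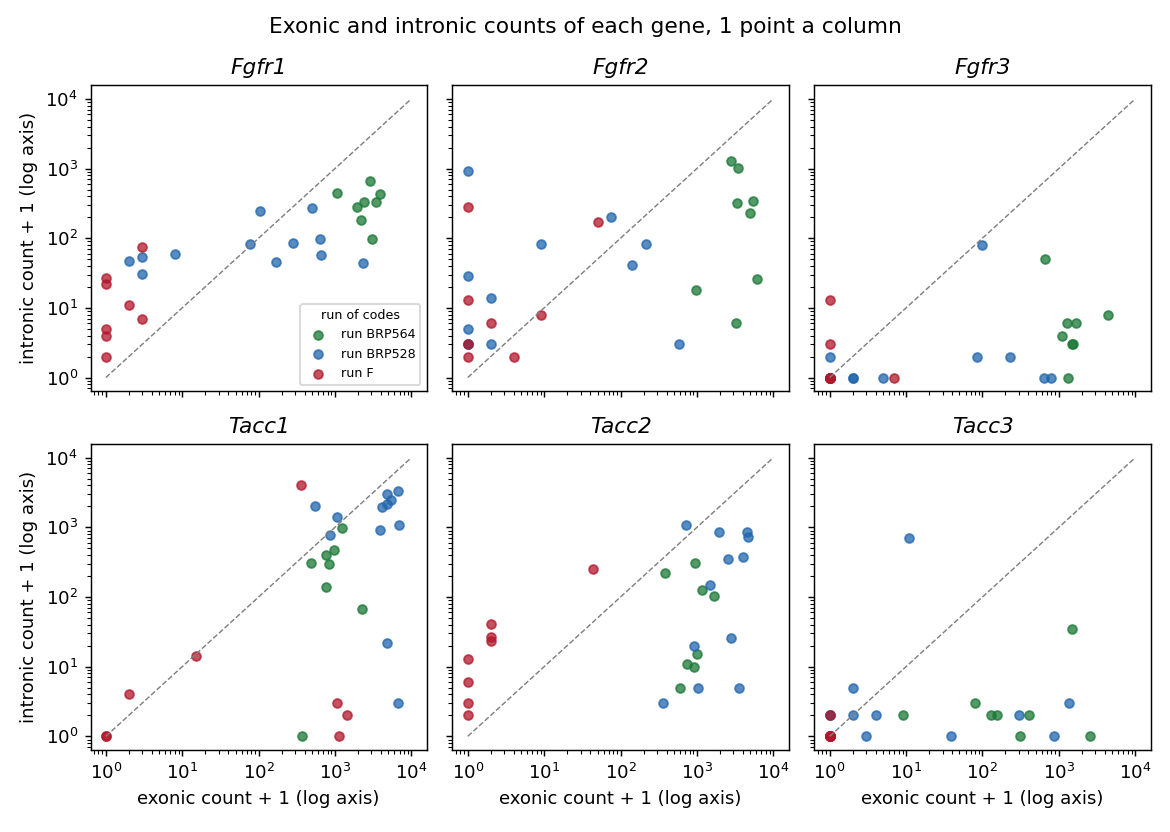
Exonic against intronic counts of each gene, 1 point a column, on log axes after adding 1, coloured by run of codes, with a dashed line where both are equal. Fgfr1 has intronic counts in all 28 columns, also where its exonic count is 0, whereas most columns with many exonic counts of Fgfr3 or Tacc3 lie near the floor of the intronic axis.

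The intronic counts of the same libraries set Fgfr1 and Fgfr2 apart from Fgfr3. Fgfr1 had intronic counts in all 28 columns, from 1 to 670, and in 8 columns it had 10 or more intronic counts with fewer than 10 exonic counts. In BRP538 there were 52 intronic and 2 exonic counts, and in F1 there were 73 and 2. Over the runs the intronic share of its counts was 11.7% (95% exact binomial interval 11.3 to 12.1) in run BRP564, 18.8% (17.8 to 19.8) in run BRP528 and 96.6% (92.3 to 98.9) in run F, where it rests on 144 of 149 counts. The share over all genes was 9.13%, 18.6% and 41.1%. Pooled over columns, Fgfr1 was thus near the all-gene share in the BRP runs and above it in run F. In run BRP528 column BRP535 gave 2348 of its 4776 exonic counts. As a median per column its share in that run was 43.4%, from 1.80 to 97.9%, against 15.7% for all genes.

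Fgfr2 also had intronic counts in all 28 columns. Its intronic share was 9.70% (9.39 to 10.02) in run BRP564, 57.4% (55.4 to 59.4) in run BRP528 and 88.6% (85.6 to 91.1) in run F. Single columns carried much of this. BRP535 had 918 intronic and 0 exonic counts, which is 66.7% of the intronic counts of run BRP528, and F24 had 275 and 0. In run BRP564 the intronic counts ranged from 5 in BRP566 to 1302 in BRP567, while their exonic counts were 3260 and 2820, so the intronic counts did not follow the exonic ones. The rank correlation between intronic and exonic levels of Fgfr2 was 0.53 over all columns but −0.02 within run BRP564 and 0.18 within run BRP528.

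In run BRP564, Fgfr3 and Tacc3 were counted almost wholly in exons, and the exceptions elsewhere came from few columns or few counts. For Fgfr3 the intronic share was 0.539% (0.423 to 0.677) in run BRP564, 4.22% (3.37 to 5.22) in run BRP528 and 70.0% (45.7 to 88.1) in run F, where it rests on 14 of 20 counts. Of these, 12 came from F11, and 78 of the 81 intronic counts of run BRP528 came from BRP541. For Tacc3 it was 0.775% (0.555 to 1.05) in run BRP564 and 21.7% (20.3 to 23.1) in run BRP528, with 1 intronic and 0 exonic counts in run F, and 700 of the 711 intronic counts of run BRP528 came from BRP539, which had 10 exonic counts of the gene. Without BRP539 the intronic share of Tacc3 over all columns is 0.673% instead of 8.91%, and without BRP541 that of Fgfr3 is 0.588% instead of 1.08%. Both genes have short introns, 8.24 kb in all for Fgfr3 and 17.3 kb for Tacc3.

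Tacc1 had the largest intronic share of the 6 genes over all columns, 29.4%, which was above that of 75.8% of the 7992 genes with at least as many counts as Tacc3. These genes had a median share of 6.75%. The intronic share of Tacc1 was 25.6% (24.7 to 26.4) in run BRP564 and 27.5% (27.1 to 27.8) in run BRP528, above the all-gene share in both. In run F a single column, F2, gave 4083 of 4102 intronic counts, beside 358 exonic ones, while F11, F12 and F24 had 1047 to 1434 exonic counts and at most 2 intronic ones. Tacc2 had 9.64% (9.01 to 10.3), 13.5% (13.1 to 13.9) and 88.6% (85.1 to 91.5) in the 3 runs, and 250 of its 358 intronic counts in run F came from F24. Summed over columns, intronic counts per kb of intron were 288 for Tacc1, 76.7 for Fgfr1, 43.4 for Tacc3, 32.6 for Tacc2, 20.4 for Fgfr3 and 1.73 for Fgfr2, whose intron length includes that of Fgfr2-217.

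The nesting of Tacc2 in the long Fgfr2 intron allows its reads to be set beside those of the host. Of the annotated genes inside that intron, 24 had intronic counts of their own, 103171 in all, of which Ate1 alone held 58.7%. The 5102 intronic counts of Fgfr2 are 4.95% of that number. The rank correlation of the Fgfr2 intronic level with the summed intronic level of the nested genes was 0.16 over all columns. It was −0.19 within run BRP564, −0.25 within run BRP528 and 0.55 within run F. With the intronic level of Tacc2 it was 0.18, −0.40, 0.10 and 0.74 in the same order. In BRP535, the column with 918 intronic counts of Fgfr2, Tacc2 had 3567 exonic but only 4 intronic counts. The study names this long isoform where it discusses intronic expression, but the gene models behind the RNA counts are not given in the sources used here, so whether a read between the nested genes was counted for Fgfr2 is not known.

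**Figure D5:**
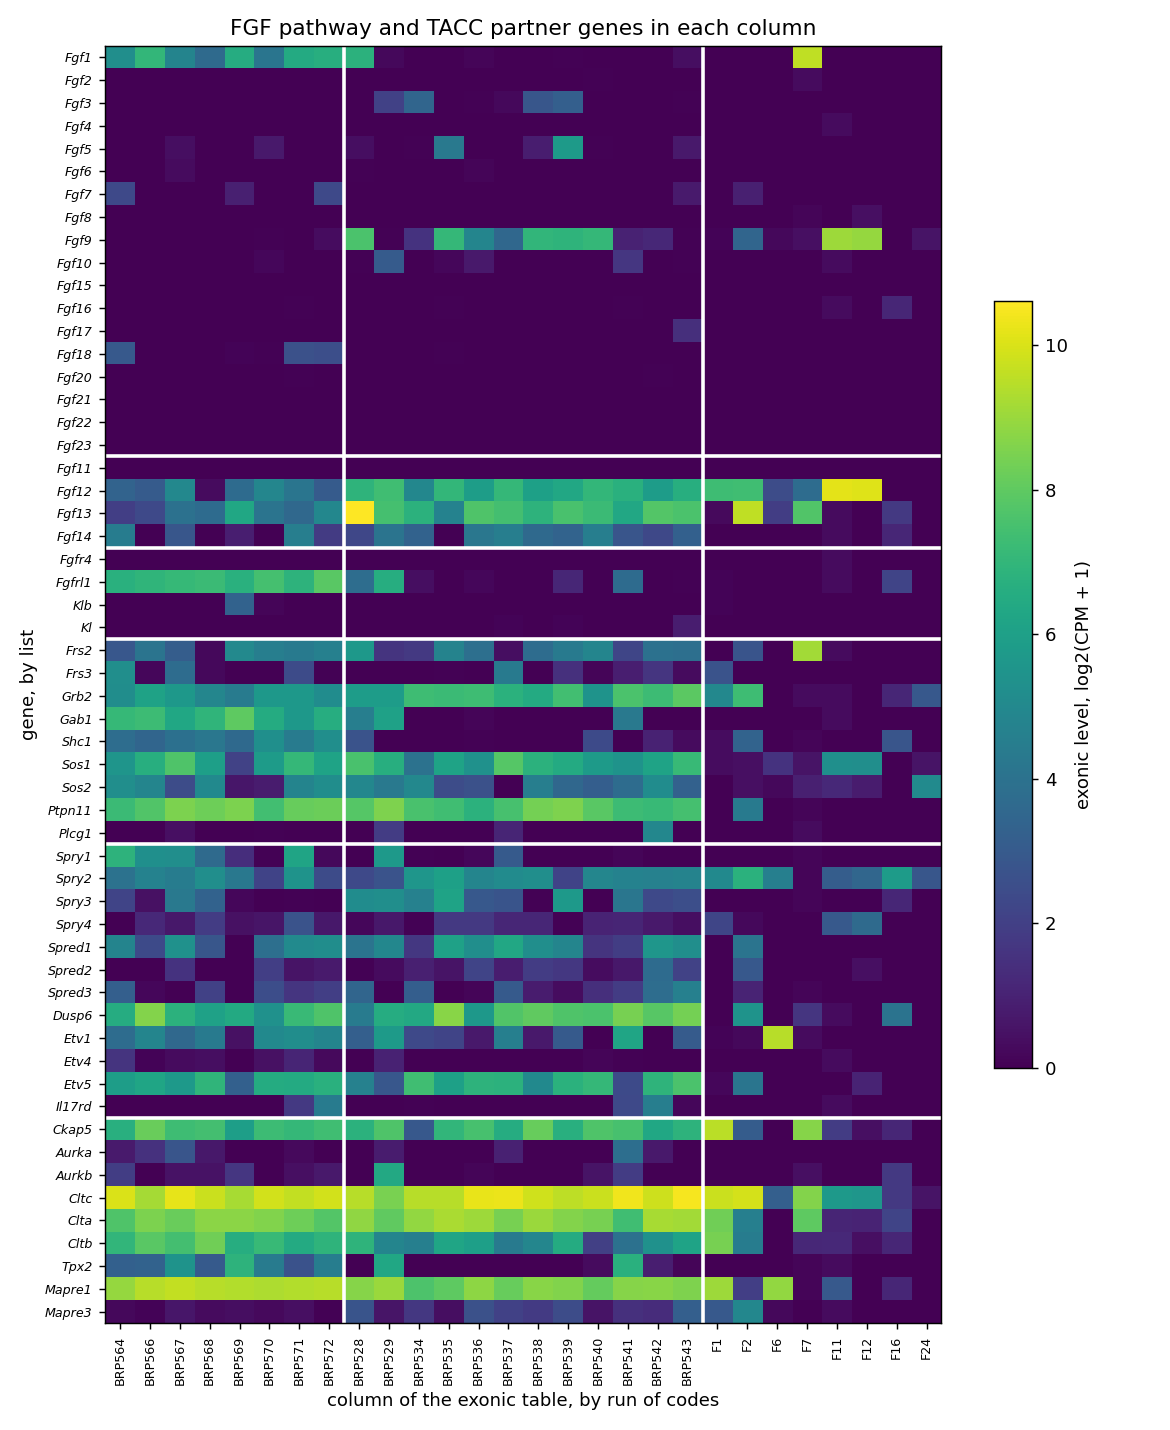
Exonic level of each gene of the FGF pathway and TACC partner lists on a log2(CPM + 1) colour scale, with columns by run of codes and white lines between runs and between lists. Fgf1, Fgfrl1, Gab1 and Shc1 are bright across run BRP564, Fgf9, Fgf12 and Fgf13 across most of run BRP528, and Ptpn11, Dusp6 and Etv5 across both.

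Few ligands were held by most columns of a run. Of 18 secreted FGF genes, 10 were held by no column, a number for which no share over all genes was computed. Of the 19524 genes with an exonic count, 51.7% were held by more than 50% of the columns in run BRP564 and 46% in run BRP528. In each BRP run a single ligand was so held. In run BRP564 this was Fgf1, which binds all the FGF receptors, at 11.6 to 131 CPM around a median of 62.4 CPM, held by all 8 columns. In run BRP528 it was Fgf9, a ligand with a preference for Fgfr3 and Fgfr2, held by 10 of 12 columns, at 0.0448 to 195 CPM around 18.9 CPM. No column of run BRP564 held Fgf9, but 3 of run F did, and its highest level of all columns was 526 CPM in F11. Fgf1 was held by 1 column of run BRP528, BRP528 at 110 CPM, and by 1 of run F, F7 at 779 CPM. Fgf2 had 3 exonic and 103 intronic counts over all 28 columns. The column with most Fgf1 in run F had 0 exonic counts of all 3 receptors.

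The intracellular FGF homologous factors bind sodium channels and not the receptors. They had higher medians in run BRP528 than in run BRP564, except for Fgf11, which had 0 exonic counts in all 28 columns. Fgf12 had a median of 10.6 CPM in run BRP564, 102 CPM in run BRP528 and 85.1 CPM in run F, Fgf13 had 13.4, 175 and 1.31 CPM, and Fgf14 had 1.73, 9.34 and 0 CPM, with overlapping ranges for all 3. In run F only Fgf12 had a median above that of run BRP564. These are exonic levels, and intronic counts were far more numerous for 2 of the genes. In run F, Fgf14 had 130377 intronic beside 2 exonic counts, and Fgf12 had 195191 beside 11404. Fgf13 had 1350 beside 6109 there. In run BRP528, Fgf14 had 150075 intronic beside 2843 exonic counts. Of the other receptors, Fgfrl1, which binds FGFs but has no kinase domain, ran from 106 to 239 CPM in run BRP564 and from 0 to 96.7 CPM in run BRP528, and its highest column in the latter run was BRP529, where Fgfr2 was also highest. The ranges of Fgfrl1 did not overlap, as for Fgfr2 and Fgfr3. Fgfr4 had 1 exonic and 75 intronic counts in all. The co-receptor genes Klb and Kl were held by 1 column each, with 120 and 20 exonic beside 1871 and 192 intronic counts in all.

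Of the 9 adaptor and relay genes, 7 were held by more than 50% of the columns in run BRP564, 5 in run BRP528 and none in run F. Of the 19524 genes with an exonic count, 51.7%, 46% and 3.77% were held so in the 3 runs. The docking protein gene Gab1 had a median of 109 CPM in run BRP564 and 0 in run BRP528, where BRP529 was highest at 67.0 CPM. Shc1, another adaptor, ran from 10.1 to 37.5 CPM and from 0 to 5.48 CPM in these runs, which did not overlap. Grb2 had the higher median in run BRP528, 152 CPM against 42.2 CPM, and the phosphatase gene Ptpn11 was similar in its range in both, 149 to 369 CPM and 110 to 381 CPM. The direct docking protein of the receptors, Frs2, had medians of 17.4 and 13.8 CPM.

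Between the BRP runs the feedback inhibitors and targets did not part as the receptors did. Of 12 genes, 8 were held by more than 50% of the columns in run BRP564, 9 in run BRP528 and 1, Spry2, in run F. Dusp6, a phosphatase of ERK, had medians of 103 and 208 CPM in the BRP runs, Etv5, an ETS factor induced by FGF signalling, 82.2 and 110 CPM, and Spry2 19.4 and 26.8 CPM, each with overlapping ranges. The summed level of the list was 114 to 569 CPM in run BRP564 and 118 to 698 CPM in run BRP528, although the summed receptors of these runs did not overlap. In run F, where the receptors were lowest, its median was 29.8 CPM, against 315 and 384 CPM in the BRP runs. Its range in run F was 2.76 to 736 CPM. The highest sum of all columns was that of F6, which had 0 CPM of the receptors. Some single genes had the higher median in run BRP564, with medians there and in run BRP528 of 23.98 and 0 CPM for Spry1, 23.1 and 5.57 CPM for Etv1 and 0.275 and 0 CPM for Etv4, and a smaller gap for Spred3.

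Of the 9 TACC partner genes, 6 were held by more than 50% of the columns in each BRP run and 1, Cltc, in run F. Ckap5 ran from 60.8 to 288 CPM in run BRP564 and from 6.61 to 279 CPM in run BRP528, and the clathrin heavy chain gene Cltc had medians of 900 and 874 CPM. Tpx2, which activates Aurora A on the spindle, was held by all 8 columns of run BRP564, at a median of 14.7 CPM, and by 3 of 12 of run BRP528. Aurka itself was held by 4 columns in each BRP run and by none of run F, at up to 13.4 CPM.

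Tacc3 was high in some columns that held dividing-cell genes and low in others. The 2 columns of run BRP528 with most Tacc3, BRP529 and BRP541, also had the highest summed level of the 5 dividing-cell genes in that run, 325 and 353 CPM against a run median of 24.6 CPM, with Top2a at 96.1 and 200 CPM. These 2 columns also held the oligodendrocyte-lineage genes Olig1, at 831 and 503 CPM, and Pdgfra, at 257 and 200 CPM, while all 6 neuronal markers were held by both. In run BRP564 the column with most dividing-cell genes, BRP569 at 548 CPM, had only 10.02 CPM of Tacc3. Column BRP570, with the least Tacc3 of that run, held Top2a at 91.1 CPM and Cdk1 at 76.4 CPM. In run BRP528, column BRP528 held Mki67 at 26.8 CPM and had 0 counts of Tacc3, and BRP542 held Top2a at 35.9 CPM and had 1. The rank correlation of Tacc3 with the summed dividing-cell genes was 0.80 over all columns, 0.45 within run BRP564 and 0.25 within run BRP528. This was not particular to Tacc3. Over all columns Fgfr1 had 0.80 with the same sum, Fgfr3 0.76 and Fgfr2 0.56. Within run BRP564 these were −0.12, 0.14 and −0.64, and within run BRP528 they were 0.36, 0.11 and 0.15. In run F the 5 dividing-cell genes summed to at most 0.0674 CPM.

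The receptors in run BRP528 likewise went with glial markers in some columns but not in all. Fgfr2 and Fgfr3 were highest in BRP529, with Aqp4 at 418 CPM, and in BRP540, with Aqp4 at 1.09 CPM. Of the other astrocyte markers in BRP540, Slc1a3 was at 32.5 CPM, which only BRP528 and BRP529 exceeded in that run. Slc1a2 was there at 2093 CPM, Sox9 at 12.6 CPM and S100b at 4.00 CPM. Aldoc was at 0.686 CPM, Gja1 at 0.343 CPM and Gfap at 0. BRP538 had more Slc1a2, at 2459 CPM, and BRP534 more Sox9, at 75.8 CPM, and neither held any of the receptors. Without BRP528 and BRP529 the run still had 3 columns that held Fgfr3, its highest level was unchanged at 36.1 CPM, and the highest level of Fgfr2 was 12.4 CPM in place of 25.96 CPM. The summed astrocyte markers ran from 2621 to 7081 CPM in run BRP564 and from 196 to 2463 CPM in run BRP528. The glutamate transporter gene Slc1a2 was held by all 12 columns of run BRP528, at 164 to 2459 CPM. In run BRP564 it was at 43.2 to 470 CPM, unlike the sum. Its part of the sum varied in run BRP528, with 2459 of 2463 CPM in BRP538 and 970 of 2135 CPM in BRP529. The rank correlation of the summed astrocyte markers with the 3 receptors was 0.63 to 0.65 over all columns, and 0.17 to 0.21 within run BRP528. With the summed oligodendrocyte-lineage markers it was 0.54 to 0.62 over all columns. Within run BRP528 this was −0.20 for Fgfr1, 0.46 for Fgfr2 and 0.47 for Fgfr3. The part of other cells' RNA in these values was not tested.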

How the data were processed

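RNA of 28 single cells was sequenced. The authors deposited raw counts for each gene and column, not normalized, in an exonic and an intronic table. Per the submitters' processing notes, bcl2fastq 2.17, STAR 2.4.0 and mm10 were used, with no role or order given. The counting tool, annotation and strand setting are not given in the sources used here. All 28 columns were used, and 0 were matched to a sample. Exonic counts were scaled to CPM, and intronic counts likewise within their table, which leaves levels dependent on the other genes of a column. Values are given per column or as range and median, correlations are Spearman rank correlations without a p-value, and intervals are 95% exact binomial (Clopper-Pearson). No 2 of the 378 pairs of columns agreed within sampling noise (lowest chi-square per degree of freedom 17.6). Gene positions and merged exon lengths are from GENCODE M21 and promoters from RefSeq. The 6 genes, the runs of codes and the lists were chosen with earlier results of these data known, and the lists come from textbook knowledge. Named beside the members are the 3 genes with the highest rank correlation to each, genes between the pairs, a nested gene with over 10% of the nested intronic counts, and list genes, of which the examples were picked after their values were seen. The ranking by rank correlation was tested on simulated data. Python 3.11.15 (numpy 2.4.6, pandas 2.3.3, scipy 1.17.1, matplotlib 3.10.9) and R 4.3.3 were used, with edgeR 4.0.16 for TMM and DESeq2 1.42.0 for size factors as alternative scalings only. The other alternatives were counts per 1000000 of the exonic and intronic total, other detection limits, thinning to 2000000 exonic counts, summed exonic and intronic counts, the median share per column, each column left out in turn and, added after seeing the data, single runs and the set without BRP528 and BRP529.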

Additional observations from a re-analysis of the deposited data

Results flagged for a closer look

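In runs of 8 columns, the highest or lowest value was marked where its gap to the nearest other column was too large a part of the run's range by Dixon's 95% limit, which chance alone passes in about 1 of 20 groups. Of 11 gene and run combinations with any spread, 5 were marked. In run BRP564, Fgfr3 stood at 225 CPM in column BRP570 (4449 counts), with the next column at 94.4 CPM. The other 4 lay in run F, where most columns are at or near 0. Tacc2 stood at 20.3 CPM in F24, from 43 counts, with the next column at 0.369 CPM. Fgfr2 stood at 8.85 CPM in F2, from 49 counts, with the next at 1.82 CPM. Fgfr1 at 0.945 CPM in F24 rests on 2 counts, and Fgfr3 at 0.405 CPM in F1 rests on 6.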

How the results depend on the processing

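Over all columns the median level was 6.27 CPM for Fgfr1, 1.10 for Fgfr2, 0.292 for Fgfr3, 70.0 for Tacc1, 53.3 for Tacc2 and 0.112 for Tacc3. Per 1000000 of the exonic and intronic total, Fgfr1 moved to 4.91, Tacc1 to 56.3 and Tacc2 to 46.8. With TMM factors Fgfr1 moved to 4.62, Tacc2 to 35.5 and Tacc3 to 0.0878. With DESeq2 size factors Fgfr1 moved to 1.34, Tacc1 to 19.1, Tacc2 to 10.3 and Tacc3 to 0.0264. The medians of Fgfr2 and Fgfr3 fall between columns that lie apart. That of Fgfr2 was 0.627 per 1000000 of the exonic and intronic total, 1.76 with TMM and 0.633 with DESeq2 factors, and 0.369 or 1.82 without any 1 column, and that of Fgfr3 was 0.191 with DESeq2 factors and 0.180 or 0.405 without any 1 column. Over the columns that held the gene alone, the medians were 96.2 for Fgfr1, 174 for Fgfr2, 74.6 for Fgfr3, 115 for Tacc1, 58.6 for Tacc2 and 16.7 for Tacc3. Numbers of columns that held a gene stayed within 1.5 times at 1 count and after thinning, for which 1 column was too shallow. The intronic share as a median per column was 26.1% for Fgfr1, 29.5% for Fgfr2, 0.284% for Fgfr3, 31.3% for Tacc1, 9.74% for Tacc2 and 0.289% for Tacc3. Leaving out each column in turn gave shares of 12.7 to 14.7% for Fgfr1, 11.8 to 16.7% for Fgfr2, 0.588 to 1.46% for Fgfr3 (lowest without BRP541), 26.1 to 31.8% for Tacc1, 11.4 to 14.7% for Tacc2 and 0.673 to 12.8% for Tacc3 (lowest without BRP539).

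Leaving out each column gave a rank correlation of −0.12 to 0.06 for Fgfr1 and Tacc1, −0.02 to 0.13 for Fgfr2 and Tacc2 and 0.66 to 0.76 for Fgfr3 and Tacc3. In the same order of pairs, the rank correlation was −0.46, −0.48 and 0.52 in the BRP columns alone, 0.29, −0.62 and −0.40 in run BRP564 alone, and 0.091, −0.13 and 0.29 in run BRP528 alone. In run F alone it was 0.40 and 0.36 for the first 2 pairs. With exonic and intronic counts summed, it was 0.18 for Fgfr2 and Tacc2 and 0.56 for Fgfr3 and Tacc3, and with TMM factors −0.024 for Fgfr2 and Tacc2. The sign for all 3 pairs thus depends on the columns taken. The cause was not tested. No paired analysis was possible because the columns carry no replicate numbers and belong to no labelled group. The shallowest column, F16 with 838343 exonic counts, cannot show levels under 3.58 CPM.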
